A study of Sander lucioperca with 12 samples.

Results

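The 6 pikeperch brains collected in 2022 fell into 3 that were rich in transcripts of foxg1a, the transcription factor that marks the telencephalon, and 3 that held almost none. They are 6 of the 12 brains sequenced. The sides were chosen by the measured foxg1a level of each brain, above or below 5 CPM (counts of a gene per 1000000 counts on all named genes of the library). The foxg1a-rich brains came from piscivores 1 and 3 and planktivore 3, and the foxg1a-poor brains from piscivore 2 and planktivores 2 and 4, so both growth phenotypes lay on each side. Because foxg1a chose the sides, all differences between them in 2022 are given here as descriptions with no test. The same genes were then tested between phenotypes in the 6 brains of 2023, which took no part in the split.

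RNA of whole brains was sequenced from wild juvenile Sander lucioperca of Lipno Reservoir, 1 fish per library and 3 fish per phenotype and year. Piscivores were seined in the littoral zone and planktivores trawled in the pelagic zone, so habitat, gear and body size went with the phenotype, and their parts cannot be told apart. The sex of the fish could not be distinguished. No genotype or treatment was set by the study. In bulk RNA of a whole brain, fewer cells of a type and less RNA per cell cannot be told apart.

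The telencephalon is the foremost division of the brain. Its dorsal part, the pallium, makes glutamatergic neurons under T-box and Emx transcription factors, and its ventral part, the subpallium, makes GABAergic neurons under Dlx genes. In fish the pallium serves learning, memory and the processing of smell. Tbr1 belongs to the pallial neurons that have left the cell cycle.

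Transcripts of foxg1a stood at 21.5, 23.7 and 13.0 CPM in piscivore 1, piscivore 3 and planktivore 3 of 2022, the foxg1a-rich brains. They stood at 0.152, 0.123 and 0.281 CPM in piscivore 2, planktivore 2 and planktivore 4, the foxg1a-poor brains, which is 3, 3 and 9 counts. No brain of 2022 lay between 0.281 and 13.0 CPM, so any threshold in that gap gives the same sides. The gene tbr1b, the pallial T-box factor that served as the second marker, stood at 22.2, 35.5 and 15.2 CPM in the same foxg1a-rich brains, against 0.152, 0.658 and 0.312 CPM in the foxg1a-poor brains. The sides did not overlap, and the counts of foxg1a in the foxg1a-poor brains were too few to order them. Divided by gene length, as TPM, foxg1a reached 25.5, 27.1 and 15.8 and tbr1b 17.0, 26.3 and 12.0 in the foxg1a-rich brains, so the levels of these genes were of similar size per length.

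The libraries held 15327406 to 33858794 counts on named genes, and 3 counts, the floor used for low values, were worth 0.0886 to 0.196 CPM, a limit of counting error alone. Ribosomal RNA genes took 12.3%, 15.4% and 17.6% of the counts in the foxg1a-rich brains and 12.0%, 21.0% and 14.6% in the foxg1a-poor brains, and both depth and ribosomal share overlapped between the sides. The RNA quality number given by the study did not overlap. It was higher in each foxg1a-rich brain than in any foxg1a-poor brain, and its part in the differences was not tested. In 2023 the ribosomal share was 0.14% to 0.36%. Of 17 measured genes of a pallium list, 14 reached 1 CPM in at least 3 of the 6 brains, tbr1b and emx3 only through the foxg1a-rich ones, so that the counts of this list describe the split and do not test it. Of the 14, 9 were higher in every foxg1a-rich brain than in any foxg1a-poor brain, none was the other way round, and 5 overlapped. Over all 18945 genes at that level, 1277 (6.74%) were higher in every foxg1a-rich brain and 1013 (5.35%) in every foxg1a-poor brain.

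A gene was said to follow foxg1a where its lowest CPM among the foxg1a-rich brains was at least 1 and at least 4 times its highest CPM among the foxg1a-poor brains. It opposed foxg1a in the mirror case. Low-side values under 3 counts were raised to 3 counts. By this rule 13 genes followed (0.0686% of 18945) and 3 opposed (0.0158%). At a ratio of 2 the numbers were 57 (0.301%) and 20 (0.106%). Among followers the last gene inside the 4-fold threshold was LOC116060039, with a ratio of 4.19, and the first outside was LOC116050131, with 3.72. Among opposers they were LOC116053708, with 4.43, and LOC118495061, with 3.49. The ratio was 46.2 for foxg1a and 23.2 for tbr1b, and the third gene, the uncharacterised LOC116065490, had 13.1.

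**Figure D1:**
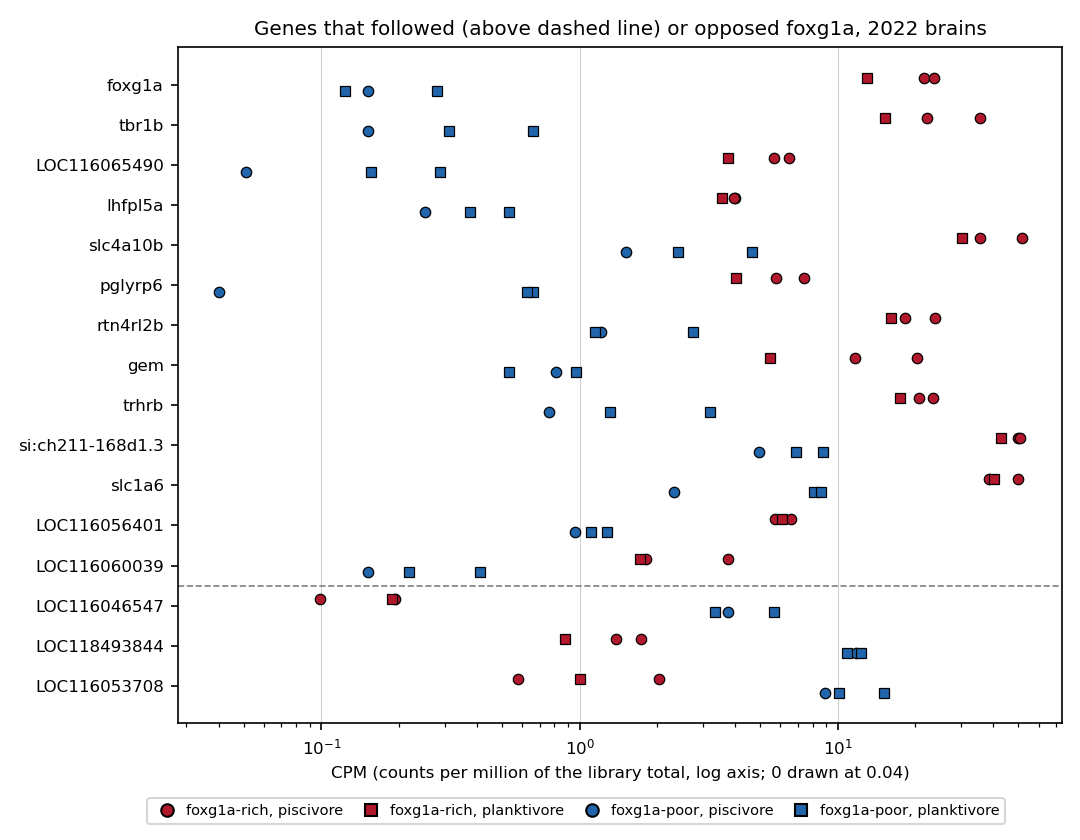
CPM on a log axis of the 13 genes that followed foxg1a and the 3 that opposed it, 1 point per brain of 2022, with foxg1a-rich brains in red, foxg1a-poor brains in blue, piscivores as circles and planktivores as squares. No gene overlaps between the colours, and the blue circle, piscivore 2, is the lowest point for 10 of the 13 followers.

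Several followers carry ions, transmitters or signals across neuronal membranes. The neuronal sodium bicarbonate transporter slc4a10b stood at 35.5, 51.7 and 30.3 CPM in piscivore 1, piscivore 3 and planktivore 3, the foxg1a-rich brains, against 1.52, 4.65 and 2.41 CPM in piscivore 2, planktivore 2 and planktivore 4, the foxg1a-poor brains. The glutamate transporter slc1a6, known in mammals from Purkinje cells, stood at 38.6, 49.8 and 40.5 CPM, against 2.33, 8.10 and 8.62 CPM in the foxg1a-poor brains. In both genes the sides lay far apart, and piscivore 2 was the lowest brain. The receptor for thyrotropin-releasing hormone trhrb stood at 23.5, 20.7 and 17.5 CPM, against 0.760, 3.21 and 1.31 CPM in the foxg1a-poor brains. The Nogo receptor-like gene rtn4rl2b, of a family that limits axon growth, stood at 23.8, 18.2 and 16.0 CPM, against 1.22, 1.15 and 2.75 CPM. For trhrb and rtn4rl2b, unlike foxg1a and tbr1b, piscivore 1 was the highest foxg1a-rich brain.

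The small GTPase gem, which holds down voltage-gated calcium channels and is induced by activity, spread most among the foxg1a-rich brains. It stood at 11.7, 20.3 and 5.48 CPM there, against 0.811, 0.534 and 0.968 CPM in piscivore 2, planktivore 2 and planktivore 4. The gene LOC116056401, which the study names as egr2, an immediate early transcription factor, was nearly even, at 6.57, 5.73 and 6.11 CPM, against 0.963, 1.11 and 1.28 CPM in the foxg1a-poor brains. Its annotated relative egr2b overlapped between the sides, with 2.83, 2.37 and 2.85 CPM against 1.98, 1.60 and 2.75 CPM. Of 15 measured immediate early genes, 1 was higher in every foxg1a-rich brain and 14 overlapped, which is near the 6.74% of all genes. The 1 was egr3, with 10.2, 9.24 and 11.6 CPM against 4.61, 5.59 and 6.40 CPM. Reads shared between gene copies of this kind cannot be traced in the counts, so their values are less certain.

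The remaining 4-fold followers were less abundant or are less known. The gene lhfpl5a, which encodes a partner of the mechanotransduction channel of hair cells, stood at 3.99, 3.95 and 3.57 CPM in the foxg1a-rich brains, against 0.253, 0.534 and 0.375 CPM in the foxg1a-poor brains. The peptidoglycan recognition gene pglyrp6 stood at 5.79, 7.41 and 4.04 CPM, against 0, 0.658 and 0.625 CPM, the 0 being piscivore 2. The genes si:ch211-168d1.3, LOC116065490 and LOC116060039 have no described product in the annotation used here, and their lowest values in foxg1a-rich brains were 42.7, 3.76 and 1.72 CPM.

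The pallial transcription factors differed in how closely they followed. At a ratio of 2 or more, 6 of the pallium list followed, against 0.301% of all genes. The basic helix-loop-helix factor bhlhe23 stood at 65.6, 69.6 and 43.0 CPM in the foxg1a-rich brains, against 5.57, 10.1 and 11.6 CPM in the foxg1a-poor brains. Its relative bhlhe22 stood at 61.7, 76.9 and 42.6 CPM, against 7.35, 16.7 and 14.5 CPM. The differentiation factor neurod6a stood at 14.7, 22.4 and 14.1 CPM, against 1.57, 4.07 and 3.94 CPM. In all 3 the foxg1a-poor brains kept several CPM, unlike foxg1a and tbr1b, which lay below 1 CPM in each of them.

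The homeobox gene emx3, which in zebrafish marks the pallium, was low throughout, at 1.48, 3.11 and 1.25 CPM in the foxg1a-rich brains, against 0.355, 0.164 and 0 CPM in the foxg1a-poor brains. The T-box gene eomesa, expressed in intermediate pallial progenitors of mammals, stood at 29.6, 42.6 and 23.2 CPM, against 7.70, 7.85 and 10.3 CPM. Other genes of the list overlapped between the sides. The homeobox gene emx2 stood at 18.7, 19.0 and 10.5 CPM, against 16.3, 15.6 and 18.2 CPM, and lhx9 at 45.1, 59.99 and 31.8 CPM, against 52.9, 65.9 and 63.0 CPM. Both overlapped, with lhx9 above its foxg1a-rich median in each foxg1a-poor brain, and the median log2 difference over the list was 0.85, beside 0.06 over all genes. The cerebellar list had a median of 0.89, so a high median was not particular to pallial genes.

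Some subpallial genes also separated the sides, but the foxg1a-poor brains differed among themselves. The summed CPM of the list overlapped, at 254.0, 169.0 and 221.8 in the foxg1a-rich brains, against 147.5, 183.1 and 191.6 in the foxg1a-poor brains. Of 15 genes at 1 CPM, 7 were higher in every foxg1a-rich brain (background 6.74%), 1 in every foxg1a-poor brain (background 5.35%), and 7 overlapped. Of these, dlx5a and dlx6a reached 1 CPM on the foxg1a-poor side only in planktivore 2. The counts thus describe the split and do not test it. At a ratio of 2, 4 followed. The GABAergic factor dlx1a stood at 10.3, 5.04 and 5.86 CPM in the foxg1a-rich brains, against 0.101, 2.18 and 1.53 CPM in piscivore 2, planktivore 2 and planktivore 4. Its partner dlx2a stood at 8.82, 4.60 and 4.88 CPM, against 0.051, 2.38 and 1.78 CPM. Both were near 0 in piscivore 2 and not in the other foxg1a-poor brains.

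The same pattern held for dlx5a, at 5.73, 2.57 and 2.29 CPM in the foxg1a-rich brains, against 0.152, 1.07 and 0.468 CPM in the foxg1a-poor brains. The zinc finger factor sp9, needed for striatal neurons in the mouse, stood at 18.9, 18.5 and 10.6 CPM, against 1.57, 4.77 and 2.90 CPM. The homeobox gene arxa of migrating interneurons stood at 8.69, 5.09 and 4.35 CPM, against 0.608, 1.69 and 1.56 CPM. Among foxg1a-rich brains piscivore 1 was highest for all of these, whereas piscivore 3 was highest for the pallial genes named above. Dlx genes and arxa are also transcribed in the diencephalon, so their counts need not come from the telencephalon alone. Genes of the mature striatum in mammals did not follow. The dopamine receptor drd2a stood at 13.3, 9.93 and 16.5 CPM in the foxg1a-rich brains, against 13.8, 12.8 and 12.4 CPM in the foxg1a-poor brains, and overlapped. Its relative drd1b stood at 13.5, 12.6 and 15.9 CPM, against 16.0, 16.1 and 17.5 CPM, and was the 1 gene higher in every foxg1a-poor brain, by a small margin. The number of such genes of the list was 2 with TMM factors, 2 with DESeq2's size factors and 0 with ribosomal RNA genes out of the totals.

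The LIM-homeobox gene si:ch211-236k19.2, which the study calls lhx6b, stood at 3.03, 0.247 and 2.38 CPM in the foxg1a-rich brains, against 0, 0.247 and 0.031 CPM in the foxg1a-poor brains. Piscivore 3 was thus rich in foxg1a and as low in this gene as planktivore 2, a foxg1a-poor brain. The homeobox gene nkx2.1, which belongs to the ventral telencephalon and to the hypothalamus, stood at 4.96, 2.42 and 4.63 CPM, against 0, 1.15 and 0.312 CPM, and was the only gene of the hypothalamus list to follow at a ratio of 2. Of 14 hypothalamic genes at 1 CPM, 3 were higher in every foxg1a-rich brain (6.74% of all genes), 1 in every foxg1a-poor brain (5.35%), and 10 overlapped. Among the 3, nkx2.1 reached 1 CPM on the foxg1a-poor side only in planktivore 2, so these counts do not test the split. The neuropeptide gene npy, transcribed in both telencephalon and hypothalamus, was 1 of those 3, at 126.7, 76.3 and 50.5 CPM, against 27.8, 45.8 and 27.9 CPM.

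Among the other 2-fold followers were genes of synapses that are transcribed far beyond the telencephalon. The kinase camk2a of excitatory synapses stood at 209.3, 192.2 and 224.2 CPM in the foxg1a-rich brains, against 62.1, 71.9 and 77.2 CPM in the foxg1a-poor brains. The exchange factor iqsec2b stood at 369.3, 312.9 and 328.5 CPM, against 72.8, 110.0 and 115.3 CPM. The GABA receptor subunit gabra5 stood at 75.1, 98.0 and 68.4 CPM, against 27.9, 20.4 and 33.7 CPM. In these abundant genes the sides kept apart without any brain near 0. Of 16 general neuronal genes, 2 were higher in every foxg1a-rich brain (6.74% of all genes) and 14 overlapped, among them snap25a with 2874, 2577 and 2631 CPM against 2958, 2658 and 2991 CPM.

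Some followers lay next to each other on the chromosomes of the assembly SLUC_FBN_1.2. The gene slc4a10b, at 22712006 to 22753527 on chromosome 8, ends 2.25 kb before tbr1b, at 22755774 to 22760311. The kinase gene prkd1 is the next protein-coding gene to foxg1a on chromosome 18, with 279 kb between them. It stood at 5.54, 6.42 and 5.57 CPM in the foxg1a-rich brains, against 0.659, 2.38 and 2.12 CPM in the foxg1a-poor brains. On chromosome 23 palmdb lies 4.56 kb before LOC116050131. The gene sp9 overlaps LOC116048374 on chromosome 8, and whether strand was used in the counting is not given in the sources used here, so that reads of this pair cannot be told apart.

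The order of the brains within a side was shared by many followers. Planktivore 3 was the lowest foxg1a-rich brain for 11 of the 13 genes and for 39 of the 57 at a ratio of 2, and piscivore 3 was the highest for 9 and 34. Piscivore 2 was the lowest foxg1a-poor brain for 10 and 43. In some followers, among them tbr1b, LOC116065490, pglyrp6 and LOC116060039, piscivore 2 held 3 counts or fewer, too few to order the foxg1a-poor brains. The shares of all genes with the same order were not counted. Such an order is a description of these brains, since the genes share libraries.

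Markers of the hind part of the brain were ordered in another way. The summed CPM of 20 cerebellar genes was 3435, 726.3 and 3322 in piscivore 1, piscivore 3 and planktivore 3, the foxg1a-rich brains, against 1190, 1825 and 2600 in piscivore 2, planktivore 2 and planktivore 4, the foxg1a-poor brains. Piscivore 3 was thus highest in foxg1a and lowest in the cerebellar sum, and the granule cell gene cbln12, a cerebellin, stood at 5.04 CPM there, against 118.5 CPM or more in each of the other brains of 2022. The summed CPM of 32 hox and hindbrain genes was 64.9, 29.4 and 198.7, against 303.8, 62.6 and 371.6 in the foxg1a-poor brains. Planktivore 3, piscivore 2 and planktivore 4 held hox transcripts, and piscivore 1, piscivore 3 and planktivore 2 hardly any. All 22 hox and hindbrain genes at 1 CPM overlapped between the sides, as did 16 of 18 cerebellar genes and 11 of 11 genes of the optic tectum and midbrain. Of all genes, 6.74% were higher in every foxg1a-rich brain and 5.35% in every foxg1a-poor brain, so overlap was not particular to these lists. The median log2 difference of the hox and hindbrain list was -3.20, with high and low brains on each side.

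Single genes show it. The hindbrain gene hoxa5a stood at 0.064, 0 and 10.2 CPM in the foxg1a-rich brains, against 20.4, 0 and 21.0 CPM in the foxg1a-poor brains. The glycine transporter slc6a5 of inhibitory hindbrain and spinal neurons stood at 1.16, 2.67 and 28.1 CPM, against 81.4, 2.14 and 60.3 CPM. In both, brains rich and poor in hox transcripts were found on each side of the foxg1a split. Planktivore 2 was low both in foxg1a and in hox transcripts, and planktivore 3 was high in both. The part that dissection played in these differences was not tested.

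**Figure D2:**
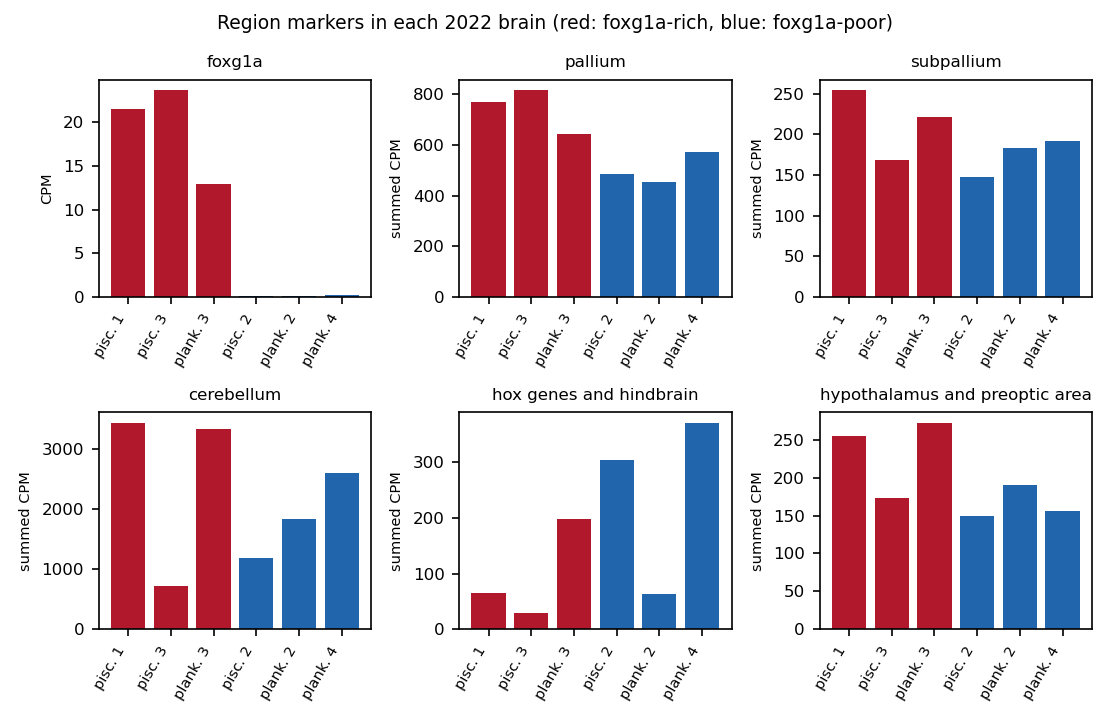
CPM of foxg1a and summed CPM of 5 marker lists in each brain of 2022, with foxg1a-rich brains in red on the left and foxg1a-poor brains in blue on the right. The pallium sum separates the colours, at 644.5 to 814.8 against 455.4 to 571.2, whereas the cerebellar and hox sums have high and low brains in both.

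Few genes opposed foxg1a by a wide margin. The first, LOC116046547, stood at 0.193, 0.099 and 0.188 CPM in piscivore 1, piscivore 3 and planktivore 3, the foxg1a-rich brains, against 3.75, 5.67 and 3.34 CPM in piscivore 2, planktivore 2 and planktivore 4, the foxg1a-poor brains. LOC118493844 stood at 1.74, 1.38 and 0.877 CPM, against 11.8, 12.3 and 10.9 CPM, and LOC116053708 at 0.579, 2.03 and 1.002 CPM, against 8.97, 15.1 and 10.1 CPM. The sides did not overlap in any of these genes, and the foxg1a-poor brains were close to each other in LOC118493844. None of these has a described product in the annotation used here. Of the 20 opposers at a ratio of 2, 3 carry other names than a locus number: si:ch73-361p23.3, si:ch1073-15f19.2 and tlr21. The last encodes a Toll-like receptor of fish and birds that binds microbial DNA, and stood at 0.773, 0.692 and 0.845 CPM, against 1.93, 1.81 and 1.84 CPM.

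Smaller differences in the opposing direction were seen in a list of marker genes of microglia, the immune cells of the brain. Which cells the transcripts came from was not tested. Of 13 measured microglial genes, 10 were higher in every foxg1a-poor brain than in any foxg1a-rich brain (background 5.35%), none was the other way round, and 3 overlapped. None reached a ratio of 2, and the median log2 difference was -0.59. The count was also 10 with TMM factors, with DESeq2 size factors and without ribosomal RNA genes in the totals. The microglial receptor p2ry12 stood at 24.5, 20.1 and 16.9 CPM in the foxg1a-rich brains, against 28.6, 28.2 and 25.1 CPM in the foxg1a-poor brains. The myeloid factor spi1b stood at 20.6, 15.8 and 12.7 CPM, against 25.8, 25.0 and 26.8 CPM. The leukocyte phosphatase ptprc stood at 66.2, 59.1 and 41.6 CPM, against 99.9, 85.6 and 124.7 CPM. Planktivore 3 was the lowest brain for each of these.

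The summed CPM of the microglia list overlapped nonetheless, at 1948, 2434 and 1231 in the foxg1a-rich brains, against 1768, 1795 and 1525 in the foxg1a-poor brains, because apoeb made up most of it. This apolipoprotein gene, also transcribed by other glia, stood at 1629, 2143 and 1028 CPM, against 1308, 1396 and 1031 CPM. Of 13 genes of oligodendrocytes and myelin, 4 were higher in every foxg1a-poor brain (5.35% of all genes) and 9 overlapped. Leaving out a fish can only keep or add such genes. Without planktivore 2 of 2022 the 4 became 10 (76.9%, against 14.1% of all genes). Without any single other fish of that year they were 4 to 6, against 7.39% to 8.94% of all genes. The myelin gene mbpa stood at 2162, 3337 and 3226 CPM in the foxg1a-rich brains, against 6388, 3964 and 3437 CPM in the foxg1a-poor brains. Piscivore 2 was far above the rest, and it also held the highest summed CPM of myelin genes, 25969.

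The brains of 2023 gave the comparison that the split did not use. There foxg1a stood at 27.9, 10.4 and 12.17 CPM in piscivores 1, 2 and 4, against 0.596, 1.53 and 0.145 CPM in planktivores 4, 5 and 6. By the same threshold, then, all piscivores of 2023 were foxg1a-rich and all planktivores foxg1a-poor, so that phenotype and foxg1a side cannot be told apart in that year. The quasi-likelihood F test of edgeR was run on 21386 genes, and p-values were adjusted over all of them by the Benjamini-Hochberg method. Differentially transcribed (DT) genes had an adjusted p below 0.05 together with a log2 fold change beyond 1 in either direction. Over all genes 27 were DT with higher levels in piscivores (0.126%) and 9 with lower levels (0.0421%).

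All 13 followers had a log2 fold change above 0 in 2023, where 49.8% of all genes did, with a median of 1.78. An unadjusted p below 0.05 with higher levels in piscivores was reached by 11 of the 13 (8.90% of all genes), and 10 were higher in every piscivore than in any planktivore (9.19% of all genes). DT were 3 of them. At the ratio of 2, all 57 genes had a log2 fold change above 0, with a median of 1.16, 50 had an unadjusted p below 0.05, 41 did not overlap, and 4 were DT. Leaving out 1 library of 2023 at a time gave 56 or 57 genes above 0 and 41 to 51 genes with an unadjusted p below 0.05. These counts leave foxg1a in, and without it they were 12 of 12 and 56 of 56 above 0. The followers were chosen for moving together in 2022, and all genes were measured in the same 6 fish of 2023. Counts over followers or over a list therefore describe linked genes and are not repeated evidence. Markers of meninges and fibroblasts went the same way in 2023, with 16 of 16 above 0 (49.8% of all genes) and a median of 1.28. An unadjusted p below 0.05 by edgeR was reached by 13 (8.90% of all genes). Of the 16 markers, edgeR called 0 DT with higher levels in piscivores (0.126% of all genes) and DESeq2 7 (1.64%). Their summed CPM was 1349, 626.4 and 572.0 in piscivores 1, 2 and 4, against 430.6, 317.6 and 221.5 in planktivores 4, 5 and 6, and piscivore 1 was the highest here too. In 2022 that sum overlapped between the sides, at 460.4, 721.1 and 322.0 in the foxg1a-rich brains, against 648.8, 259.3 and 387.5 in the foxg1a-poor brains. The part of these cells in the differences of 2023, those of followers and of microglial genes included, was not tested.

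The DT followers were tbr1b, rtn4rl2b, gem and kcnf1b. Transcripts of tbr1b stood at 43.7, 17.6 and 19.0 CPM in piscivores 1, 2 and 4 of 2023, against 1.11, 2.64 and 1.45 CPM in planktivores 4, 5 and 6, a log2 fold change of 3.94 ± 0.46 (SE) with an adjusted p = 0.0435 by edgeR. Those of rtn4rl2b stood at 33.965, 11.7 and 16.7 CPM, against 2.17, 2.403 and 3.23 CPM in planktivores, a log2 fold change of 3.02 ± 0.39 with an adjusted p = 0.0476. Piscivore 1 was far above the other piscivores in both, and the phenotypes did not overlap.

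Transcripts of gem stood at 12.8, 8.22 and 7.37 CPM in piscivores of 2023, against 2.34, 2.04 and 1.49 CPM in planktivores, a log2 fold change of 2.29 ± 0.28 with an adjusted p = 0.0435 by edgeR. The potassium channel subunit kcnf1b, a 2-fold follower, stood at 20.3, 15.7 and 10.9 CPM, against 3.75, 4.81 and 4.46 CPM, a log2 fold change of 1.87 ± 0.24 with an adjusted p = 0.0457. The phenotypes did not overlap in either gene. The adjusted p-values lay close to the threshold: without 1 library of 2023, tbr1b, rtn4rl2b and gem were DT in none of the 6 fits, with adjusted p-values up to 0.200, and kcnf1b in 1 of them, the fit without piscivore 4, while the log2 fold change of tbr1b stayed between 3.43 and 4.38.

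The gene foxg1a itself averaged 16.8 ± 9.63 CPM in piscivores and 0.758 ± 0.707 CPM in planktivores of 2023 (SD, n = 3 each). Its log2 fold change of 4.44 ± 0.73 (SE) was larger than that of tbr1b, but at an adjusted p = 0.0969 by edgeR it was not DT. DESeq2's Wald test, the test the study used, gave it an adjusted p = 0.000155, and called 10 of the 13 followers DT in 2023, where edgeR called 3. DESeq2 also called more genes in all, 1.64% with higher levels in piscivores and 0.21% with lower levels. Among other followers not DT by edgeR, emx3 had a log2 fold change of 3.19 ± 0.62 (adjusted p = 0.109), arxa 1.67 ± 0.36 (adjusted p = 0.132) and eomesa 1.54 ± 0.45 (adjusted p = 0.228). The smallest of all was LOC116054771, with 0.05 ± 0.33.

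**Figure D3:**
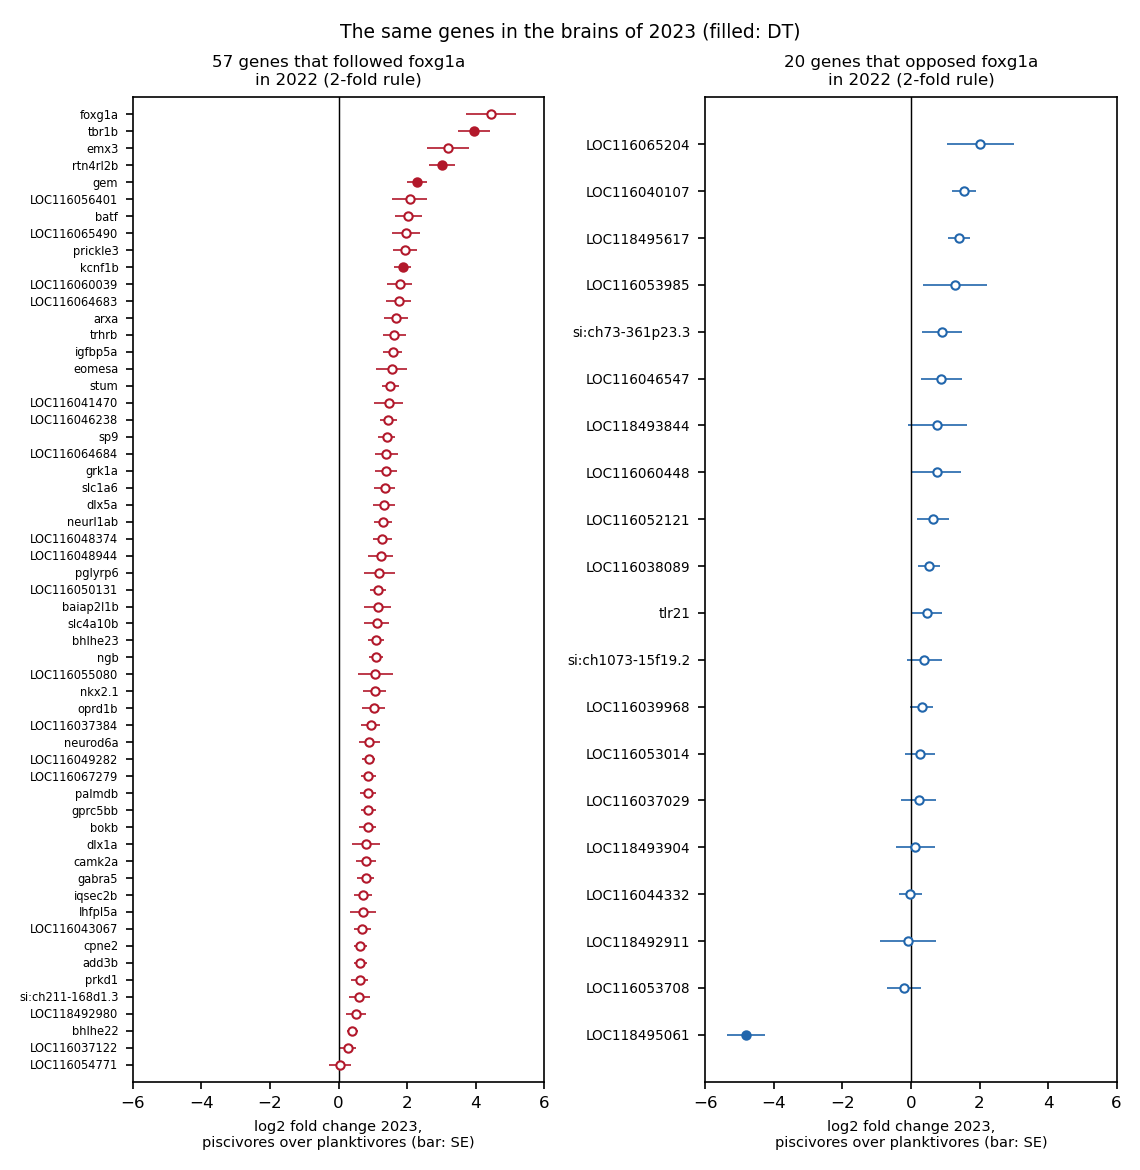
Log2 fold change of piscivores over planktivores in the brains of 2023, with its SE, for the 57 genes that followed foxg1a in 2022 at a ratio of 2 (left) and the 20 that opposed it (right), filled where DT. All 57 followers lie above 0, whereas 16 of the 20 opposers do so too (49.8% of all genes) and only LOC118495061 is DT with lower levels in piscivores.

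Among the piscivores of 2023, piscivore 1 was the highest brain for 13 of 13 followers and for 56 of 57 at a ratio of 2. The share of all genes for which it was highest was not counted. Piscivore 1 was also highest for the microglial genes and for the sum of meningeal markers, so this place was not particular to followers. The planktivores had no such order, and no fish among them was highest for more than 28 of the 57. In the planktivores of 2023, some followers had more CPM than in the foxg1a-poor brains of 2022. Followers were chosen for low values in those brains, and the ribosomal share differed between the years, so nothing is read from this. The transporter slc4a10b stood at 75.0, 30.7 and 41.5 CPM in piscivores of 2023, against 18.0, 17.7 and 33.2 CPM in planktivores, and si:ch211-168d1.3 at 94.7, 41.8 and 61.6 CPM, against 38.7, 34.7 and 58.8 CPM. Both overlapped between phenotypes. The same was true of dlx1a, at 26.4, 18.4 and 13.0 CPM in piscivores, against 12.5, 15.5 and 5.55 CPM in planktivores.

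Over the pallium list, 15 of 17 genes had a log2 fold change above 0 in 2023, 7 had an unadjusted p below 0.05 with higher levels in piscivores (8.90% of all genes) and 1 with lower levels (4.78% of all genes), and 1, tbr1b, was DT. The gene with lower levels was lhx9, with a log2 fold change of -0.44 ± 0.18. The call of tbr1b alone is that of edgeR, whereas DESeq2 called 5 genes of the pallium list with higher levels in piscivores (1.64% of all genes) and 0 with lower levels (0.21%). Over the subpallium list 11 of 18 were above 0, where 49.8% of all genes were. At an unadjusted p below 0.05, 6 were higher (8.90% of all genes) and 2 lower (4.78%), and none was DT by edgeR. By DESeq2, 5 genes of that list, among them arxa and dlx5a, were DT with higher levels in piscivores (1.64% of all genes) and 1 with lower levels (0.21%). The hypothalamus list had 7 of 25 genes above 0, a median of -0.45, and 4 genes higher (8.90% of all genes) and 8 lower (4.78%) at an unadjusted p below 0.05. DESeq2 called 2 genes of this list with higher levels in piscivores (1.64% of all genes) and 1 with lower levels (0.21%). Its gene npy was DT with 124.3, 98.5 and 88.4 CPM in piscivores, against 35.9, 26.1 and 18.4 CPM in planktivores, a log2 fold change of 1.97 ± 0.26 and an adjusted p = 0.0471 by edgeR, which with DESeq2's size factors became 0.0544. Without 1 library of 2023 the adjusted p by edgeR was 0.0384 to 0.188, and npy was DT only in the fit without planktivore 4.

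The opposers of 2022 were also tested between the phenotypes of 2023. Of the 3 at a ratio of 4, 2 had a log2 fold change above 0 and 1 below, and none was DT by edgeR or DESeq2 or had an unadjusted p below 0.05 by edgeR. LOC116046547 stood at 3.37, 2.61 and 6.51 CPM in the foxg1a-rich piscivores of 2023, against 0.596, 3.60 and 2.69 CPM in the planktivores, and the phenotypes overlapped. Of the 20 at a ratio of 2, 16 had a log2 fold change above 0 (49.8% of all genes), that is, towards the foxg1a-rich piscivores. By edgeR, 2 of the 20 had an unadjusted p below 0.05 with higher levels in piscivores (8.90% of all genes) and 1 with lower levels (4.78%). Both counts were near these shares. LOC118495061 was the only one of the 20 that was DT by edgeR. DESeq2 called 2 with higher levels in piscivores (1.64% of all genes) and 1 with lower levels (0.21%). LOC118495061 stood at 0.148, 0 and 0.062 CPM in piscivores (5, 0 and 2 counts), against 2.55, 2.70 and 2.14 CPM in planktivores, a log2 fold change of -4.82 ± 0.55 with an adjusted p = 0.0431 by edgeR. Its size depends on how values near 0 are treated, and without any 1 library of 2023 its adjusted p was 0.0583 to 0.132. In 2022 it stood at 0.064, 0.494 and 0.407 CPM in the foxg1a-rich brains, against 1.72, 2.38 and 3.09 CPM in the foxg1a-poor brains.

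Between the phenotypes of 2023, all 13 microglial genes had a log2 fold change above 0 (49.8% of all genes), that is, higher levels in the foxg1a-rich piscivores, and had so in each fit without 1 library. An unadjusted p below 0.05 was reached by 6 (8.90% of all genes), and none was DT by edgeR and 2 by DESeq2 (1.64% of all genes). Between the phenotypes of 2022, which cross the foxg1a split, 6 of 13 had a log2 fold change above 0, and in the interaction with year no gene of the list was DT by DESeq2. The complement gene c1qb stood at 38.1, 7.50 and 12.5 CPM in piscivores 1, 2 and 4 of 2023, against 6.30, 3.57 and 6.17 CPM in planktivores 4, 5 and 6. In 2022 it had stood at 4.57, 4.55 and 2.72 CPM in the foxg1a-rich brains, against 5.12, 7.56 and 7.25 CPM in the foxg1a-poor brains. Piscivore 1 of 2023, the brain with the highest foxg1a, was also the highest of that year for each of the 13 microglial genes. The foxg1a split of 2022 and the phenotypes of 2023 are unlike comparisons, and a difference between them in this list was not tested.

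**Figure D4:**
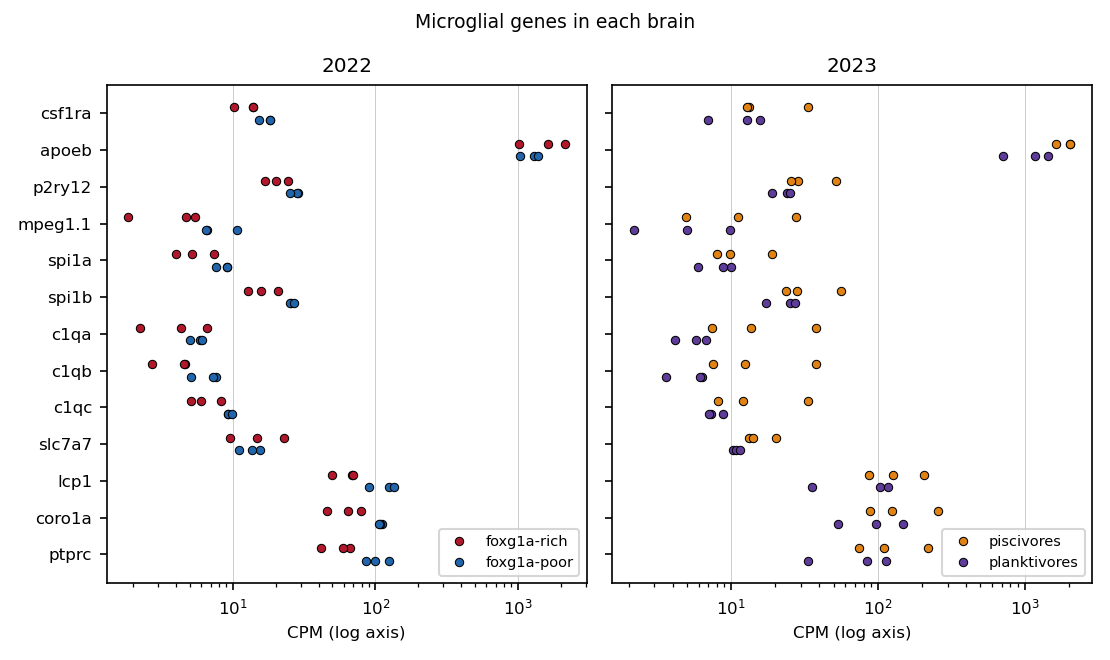
CPM on a log axis of 13 microglial genes in each brain, for foxg1a-rich (red) and foxg1a-poor (blue) brains of 2022 on the left and piscivores (orange) and planktivores (purple) of 2023 on the right. In 2022, 10 genes are higher in every foxg1a-poor brain, and in 2023 all 13 have a fold change towards the piscivores.

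Between the labelled phenotypes of 2022, no follower was DT. Of the piscivores 2 of 3 and of the planktivores 1 of 3 were foxg1a-rich, so the split crossed the phenotypes and placed most followers on the side of the piscivores by itself. The log2 fold change of foxg1a was 1.70 ± 1.99 (SE, adjusted p = 0.908 by edgeR) and that of tbr1b 1.78 ± 1.91 (adjusted p = 0.898), each smaller than its own error. All 13 had a log2 fold change above 0 (49.4% of all genes), a sign that the split favours and from which nothing is read. Of the 57, 55 were above 0 and 2 below. No follower had an unadjusted p below 0.05 by edgeR in either the 13 or the 57, and by DESeq2 no follower was DT either. Of all genes, 4.3% had such a p with higher and 2.95% with lower levels in piscivores. The rule chose followers that lay far apart within each phenotype of 2022, which widens the error of this test. Nothing is read from the lack of calls among them. Over all 20624 genes tested in 2022, 6 were DT with higher levels in piscivores (0.0291%) and 5 with lower levels (0.0242%). With the side of the foxg1a split as a further term, 23 genes were DT, and these held all 11 of the fit without it. That term was set from foxg1a in the same libraries, so nothing is read from the larger number.

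The phenotype difference of 2023 was set against that of 2022 in 1 model of all 12 libraries. The interaction was 2.73 ± 2.29 on the log2 scale for foxg1a (adjusted p = 0.882 by edgeR) and 2.15 ± 2.06 for tbr1b (adjusted p = 0.901). Of the 13 followers none was DT in this test or by DESeq2, and none had an unadjusted p below 0.05, which 3.31% of all genes had with a higher and 3.09% with a lower difference in 2023. Over all 21789 genes 2 (0.00918%) and 1 (0.00459%) were DT in the 2 directions. In 2022 foxg1a and its followers lay far apart within each phenotype by the rule that chose them, which widens the error of this test. It therefore cannot decide whether the phenotype difference of foxg1a was larger in 2023 than in 2022.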

How the data were processed

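Whole-brain RNA of 12 juvenile pikeperch was sequenced, with 1 library per fish. Per the methods, the authors trimmed poly(A)-selected reads with Trimmomatic, aligned them to SLUC_FBN_1.2 with STAR 2.5.2, and deposited raw counts per gene from uniquely placed reads on exons. They also deposited TPM, whose computation is not given in the sources used here. The table has 32987 lines. No gene is given on 24 of them, which took 0.589% to 3.18% of a library and were dropped.

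CPM for the description of 2022 were counts over the total of the 32963 named genes. Genes named in the text were foxg1a and tbr1b, the 15 genes of each direction with the largest ratio between the sides, members that were DT, and genes of marker lists; the other 2-fold members and the neighbouring genes were picked after their values were seen. Log2 differences of the sides compare medians of CPM plus 0.5. Members and lists were chosen with earlier results of these data known.

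Label groups were compared in R 4.3.3 with edgeR 4.0.16 (filterByExpr, TMM, robust quasi-likelihood F test). DESeq2 1.42.0, other scalings, filters, thresholds and each library left out in turn were the alternatives. In 2022 the phenotypes share replicate numbers 2 and 3, but deviations of same-numbered fish were not correlated (-0.05 and 0.04), so no block was used. Tested on simulated data with 200 genes changed by a log2 of 2, edgeR recovered 88.0% in the 2023 comparison of 21386 genes and 88.5% in that of 2022 of 20624 genes. The changed genes were drawn from those with a mean above 1 CPM, and the fish of a group were given the same mean. In the real data foxg1a, with a log2 fold change of 4.44 in 2023, was not DT by edgeR, so these shares do not hold for every gene. Separate fish are the replicates, 3 per group. No sequences are shown.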

Additional observations from a re-analysis of the deposited data

How the results depend on the processing

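The number of genes that followed foxg1a in 2022 was 13, and it was 57 at a ratio of 2, 3 at a ratio of 8 and 15 to 24 without 1 library, where the rule can only keep or add genes. The number that opposed it was 3, and it was 11 on the deposited TPM, 20 at a ratio of 2, 1 at a ratio of 8 and, for the same reason never fewer, 3 to 8 without 1 library. The cause of the difference on TPM was not tested. TMM factors gave 12 and 3 genes, and over all genes they turned the count of genes higher on the foxg1a-rich and on the foxg1a-poor side to 1140 and 1264. The count of DT genes between phenotypes was more fragile. In 2023 it was 36, and 388 by DESeq2, 60 with no filter and 1 to 16 without 1 library. In 2022 it was 11, and 144 by DESeq2, 43 with no filter, 23 with the side of the split as a term and 0 to 2 without 1 library. In the interaction it was 3, and 88 by DESeq2 and 0 to 8 without 1 library. Followers DT in 2023 were 3, and 10 by DESeq2 and 0 in each fit without 1 library, which also has fewer fish. The call of tbr1b was lost with no filter (adjusted p = 0.0543 by edgeR) and that of rtn4rl2b with DESeq2's size factors (adjusted p = 0.0517). With the replicate number as a block, 18 genes were DT between phenotypes in 2022, 6 of them shared with the 11, and no follower was. Both same-numbered pairs lay on the same side of the split. In 2023 the phenotypes share 1 number and no block could be fitted. With 3 fish per group, the exact permutation test of a single value cannot go below p = 0.1. The alternatives for the 2-fold counts, the microglia list and the totals with unnamed lines were chosen after seeing the data.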

Other observations

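The muscle creatine kinase genes crossed the foxg1a split of 2022. Of 11 skeletal muscle genes tested between phenotypes of 2022, these 2 were DT, with lower levels in piscivores (0.0242% of all genes), and 5 had an unadjusted p below 0.05 with lower levels (2.95%). The gene ckma stood at 1.67, 0.840 and 11.6 CPM in piscivore 1, piscivore 3 and planktivore 3, the foxg1a-rich brains, against 0.912, 14.5 and 11.8 CPM in piscivore 2, planktivore 2 and planktivore 4, the foxg1a-poor brains. Its copy ckmb stood at 0.773, 0.593 and 7.61 CPM, against 0.304, 7.77 and 6.68 CPM. In both, each planktivore was above each piscivore, whichever side of the split it lay on. Between phenotypes of 2022 the log2 fold change of piscivores over planktivores was -3.51 ± 0.29 (SE) for ckma and -3.76 ± 0.33 for ckmb, both with an adjusted p = 0.0129 by edgeR (n = 3 each). Fits without 1 library of 2022 kept 0 or 1 of the 11 DT genes, so ckma and ckmb were never DT together there. In 2023 neither was DT, with -2.93 ± 0.88 for ckma and -0.01 ± 0.85 for ckmb. Of 9 muscle genes at 1 CPM in at least 3 brains of 2022, 8 overlapped between the foxg1a-rich and foxg1a-poor brains. Of all genes, 6.74% were higher in every foxg1a-rich brain and 5.35% in every foxg1a-poor brain, so overlap was not particular to muscle genes. The part of muscle carried along with the tissue was not tested.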
